A study of Mus musculus with 220 samples.

Results

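The data are the levels of 10 genes for receptors and ligands of 3 endothelial signalling systems, read in single endothelial cells of mouse lymph nodes. The genes were taken by name and not by a rule on their values, but earlier results of these data were known at the choice. They were the vascular endothelial growth factor (VEGF) receptors Kdr, Flt1 and Flt4, the co-receptors Nrp1 and Nrp2, and the angiopoietin receptors Tek and Tie1. The others were the VEGF-induced secreted proteoglycan Esm1, and apelin (Apln) with its receptor Aplnr. Together they are 10 of the 24049 gene symbols in the deposited table, and each had a row of its own.

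In the study, lymph nodes of C57BL/6 mice were dissociated, endothelial cells were sorted by flow cytometry, and the RNA of each cell was copied on the Fluidigm C1 microfluidic system and sequenced. Values are FPKM, fragment numbers corrected for transcript length and for the depth of each cell, so levels of different genes can be set side by side. There were 4 groups. Blood endothelial cells (BEC, 32 cells) came from untreated, homeostatic mice. High endothelial cells (HEC) line the venules through which lymphocytes enter the node, and 79 homeostatic HEC also came from untreated mice. Another 65 HEC, called inflamed in the labels, came from mice whose skin had received 4% oxazolone, a contact sensitiser, with harvest on day 3. The last 44 HEC, called dedifferentiated in the labels, came from mice given LTBR-Ig, a decoy for the lymphotoxin-beta receptor, as a single intraperitoneal injection, with harvest on day 7. The labels name no animal, age, microfluidic chip or sort gate, so each group counts as 1 sample, its cells are not replicates, and condition, animal, chip and day cannot be told apart. No p-value is therefore given. A gene is called higher or lower where the means of log2(FPKM + 1) over cells differ by 1 or more, and a gene is called present in a cell from an FPKM of 1. Intervals for shares of cells are exact Clopper-Pearson 95% intervals and cover counting error over cells only.

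All 219 cells analysed, counting a pair of nearly identical inflamed cells as 1 cell, had the endothelial genes Pecam1 and Cdh5. Depth, approximated from the steps between low values, ran from 707000 to 4940000 fragments per cell with a median of 2030000. The median number of genes present per cell was 2870.5 in BEC, 3075 in dedifferentiated HEC, 3842 in homeostatic HEC and 3961 in inflamed HEC. All 7 HEC markers (such as Glycam1 and Ccl21a) were higher in homeostatic HEC than in BEC, and all 6 capillary markers (such as Gpihbp1 and Rgcc) were lower. Glycam1 still had a median FPKM of 66.2 in BEC against 59091 in homeostatic HEC, and how far RNA was carried over between cells was not tested. Cells with 3 or more markers of another cell type at an FPKM of 10 or more numbered 1 among BEC and 7, 3 and 1 among homeostatic, inflamed and dedifferentiated HEC, and no cell had 3 lymphatic endothelial markers at that level.

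VEGF-A signals in blood endothelium mainly through Kdr (VEGFR2), while Flt1 (VEGFR1) binds the same ligand tightly and, also as a soluble form, limits how much reaches Kdr. Flt4 (VEGFR3) binds VEGF-C and VEGF-D and is best known from lymphatic vessels, and the neuropilins bind VEGF ligands and class 3 semaphorins beside the receptor kinases. Tek (Tie2) is the receptor for angiopoietins, with angiopoietin-1 its activating ligand and angiopoietin-2 a context-dependent antagonist, and Tie1 modulates it. Apln and Aplnr form a peptide and G protein-coupled receptor pair used in vessel growth, and Esm1 is a marker of tip cells, the leading cells of a vessel sprout.

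Promoter sequences are shown for genes called in different comparisons below: Kdr, Flt1 and Esm1, which were lower in homeostatic HEC than in BEC, and Tek and Nrp2, which were higher in dedifferentiated than in homeostatic HEC. The sequences are from RefSeq on build GRCm38.p6, cover 250 to 51 bases before the annotated start and run 5′ to 3′ on the strand of the gene. Capitals mark GGAA and its reverse complement TTCC, the core of the sites bound by ETS factors, a family with members active in all endothelium. The windows are chr5:75978506-75978705, minus strand, for Kdr; chr5:147726062-147726261, minus strand, for Flt1; chr13:113209409-113209608, plus strand, for Esm1; chr4:94739039-94739238, plus strand, for Tek; and chr1:62703067-62703266, plus strand, for Nrp2.
Kdr: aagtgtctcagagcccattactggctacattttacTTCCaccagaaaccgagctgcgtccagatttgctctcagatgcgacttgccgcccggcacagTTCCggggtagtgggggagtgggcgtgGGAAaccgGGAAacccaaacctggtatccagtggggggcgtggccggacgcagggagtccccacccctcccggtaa
Flt1: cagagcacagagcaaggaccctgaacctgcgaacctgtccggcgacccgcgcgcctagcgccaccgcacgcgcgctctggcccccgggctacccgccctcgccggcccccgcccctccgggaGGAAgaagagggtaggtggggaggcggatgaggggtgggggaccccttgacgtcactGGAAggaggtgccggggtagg
Esm1: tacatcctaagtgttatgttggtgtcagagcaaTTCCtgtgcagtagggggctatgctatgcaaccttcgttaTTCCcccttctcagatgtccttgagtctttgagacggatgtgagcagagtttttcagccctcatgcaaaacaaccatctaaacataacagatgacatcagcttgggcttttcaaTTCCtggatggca
Tek: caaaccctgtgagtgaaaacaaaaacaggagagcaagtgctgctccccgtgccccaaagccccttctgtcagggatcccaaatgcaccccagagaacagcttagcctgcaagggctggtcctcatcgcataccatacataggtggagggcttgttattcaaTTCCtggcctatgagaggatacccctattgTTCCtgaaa
Nrp2: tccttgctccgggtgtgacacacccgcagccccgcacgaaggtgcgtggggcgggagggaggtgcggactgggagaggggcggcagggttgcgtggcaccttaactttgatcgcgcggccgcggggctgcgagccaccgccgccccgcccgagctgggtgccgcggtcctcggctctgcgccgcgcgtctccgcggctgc
Kdr had 4 of these cores in its window, Esm1 had 3, Flt1 and Tek had 2 each, and Nrp2 had none. Of 32851 promoters of the same length, 89.2% held at least 1 core and the median was 2, so the letters match most promoters and only describe these windows. Of the 10 genes, 9 were found in the RefSeq table, Aplnr being the exception. Among those not shown here, Tie1 had 6 cores, Nrp1 had 4, Apln had 3 and Flt4 had 2.

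The receptor kinases Kdr and Flt1 and the co-receptor Nrp1 had the highest mean log2 levels of the set in BEC, and all 3 were lower in homeostatic HEC. By mean FPKM in BEC, Esm1 (247) lay above Kdr (236) and Flt1 (201) and below Nrp1 (460). Of the 10 genes, 7 were lower by 1 or more in homeostatic HEC (Kdr, Flt1, Flt4, Nrp1, Tie1, Esm1 and Aplnr) and none was higher. Among the 9248 genes above the detection filter in this comparison, 4.4% were lower and 17% were higher by the same rule (21.4% in either direction). The filter asks that a gene be present in over 10% of the cells of either group, and 9 of the 10 genes passed it, Apln being the exception. Flt4 (37.5% of BEC, 5.06% of homeostatic HEC) and Esm1 (50% and 0%) passed it through BEC alone, which favoured a lower call. The median difference of the 10 genes was -2.15, beside 0.28 for all genes tested. With median-ratio scaling of the cells, which set every cell to a common level of broadly expressed genes, the median of all genes was 0.03, 10.9% of genes were lower and 9.76% higher, and 8 of the 10 were lower, Tek in addition.

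**Figure D1:**
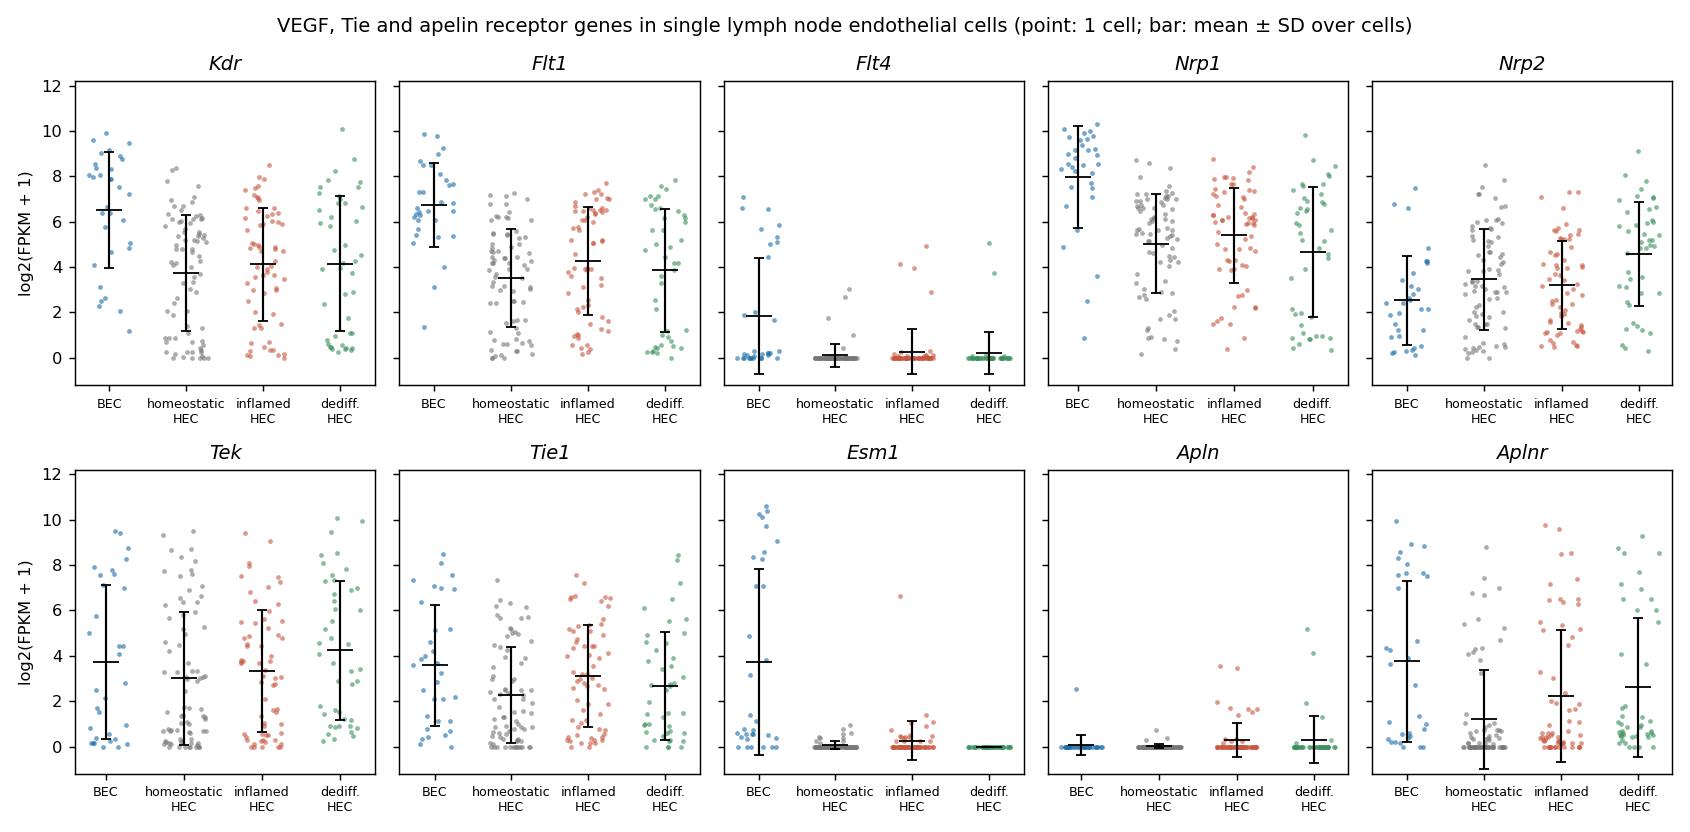
Level of each gene in every cell as log2(FPKM + 1) on the vertical axis, by group on the horizontal axis; each point is 1 cell and the black bar is the mean ± SD over cells. Kdr, Flt1 and Nrp1 points sit high in BEC and spread down to 0 or near it in the 3 HEC groups, Esm1 has a high and a low set of BEC and almost no HEC above 1, and Nrp2 sits highest in dedifferentiated HEC.

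Kdr, on the minus strand at chr5:75932827-75978458 (GRCm38, GENCODE M21), had a lowest, median and highest FPKM of 1.3, 167 and 956 in BEC. In homeostatic HEC the same values were 0, 18.2 and 326. Of the 79 homeostatic HEC, 4 lay above the BEC median. The ranges overlapped, and the groups differed in where most of their cells lay. The mean of log2(FPKM + 1) was 6.51 ± 2.54 (SD over 32 cells) in BEC and 3.74 ± 2.55 (SD over 79 cells) in homeostatic HEC, a difference of -2.77. Mean FPKM was 236 and 41.5, which makes BEC 5.68-fold higher on the linear scale. Kdr was present in all 32 BEC and in 58 of 79 homeostatic HEC (73.4%, interval 62.3% to 82.7%).

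Flt1 lies on the same chromosome (minus strand, chr5:147561604-147726011) and showed the same order of groups. Its lowest, median and highest FPKM were 1.53, 92.8 and 929 in BEC and 0, 14.1 and 155 in homeostatic HEC. The mean log2 level was 6.73 ± 1.85 in BEC and 3.51 ± 2.17 in homeostatic HEC, a difference of -3.22, and 6 of 79 homeostatic HEC exceeded the BEC median. Apart from the barely detected Apln, Flt1 had the smallest SD over BEC of these genes. The table gives 1 value per gene, so the membrane and the soluble form of this decoy receptor are not separated.

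Nrp1 (plus strand, chr8:128358604-128503363), which binds VEGF-A beside Kdr, had the highest mean log2 level of the 10 genes in every group, although in dedifferentiated HEC Tek had the higher mean FPKM (119 against 98.9). In BEC its lowest, median and highest FPKM were 0.84, 373 and 1264, and in homeostatic HEC they were 0.12, 44.5 and 425. Only 2 of 79 homeostatic HEC lay above the BEC median. The mean log2 level was 7.98 ± 2.25 and 5.03 ± 2.17, a difference of -2.95. Although lower, the gene was detected in 73 of 79 homeostatic HEC (92.4%, interval 84.2% to 97.2%) beside 31 of 32 BEC. An annotated microRNA gene, Mir1903, overlaps Nrp1.

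Kdr, Flt1 and Nrp1 were present together in 31 of 32 BEC, against 51 of 79 homeostatic HEC (64.6%, interval 53% to 75%). At a limit of 10 FPKM the counts were 26 of 32 BEC (81.3%, interval 63.6% to 92.8%) and 24 of 79 homeostatic HEC (30.4%, interval 20.5% to 41.8%). A further 29 homeostatic HEC had a pair of the 3 at that limit, 19 had 1 of them, and 7 had none. Within a cell, neither VEGF receptor kinase stood above the other: Kdr exceeded Flt1 in 16 of 32 BEC and in 41 of 79 homeostatic, 33 of 64 inflamed and 24 of 44 dedifferentiated HEC. Nrp1 exceeded Kdr in 23 of 32 BEC and in 55 of 79 homeostatic HEC.

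**Figure D2:**
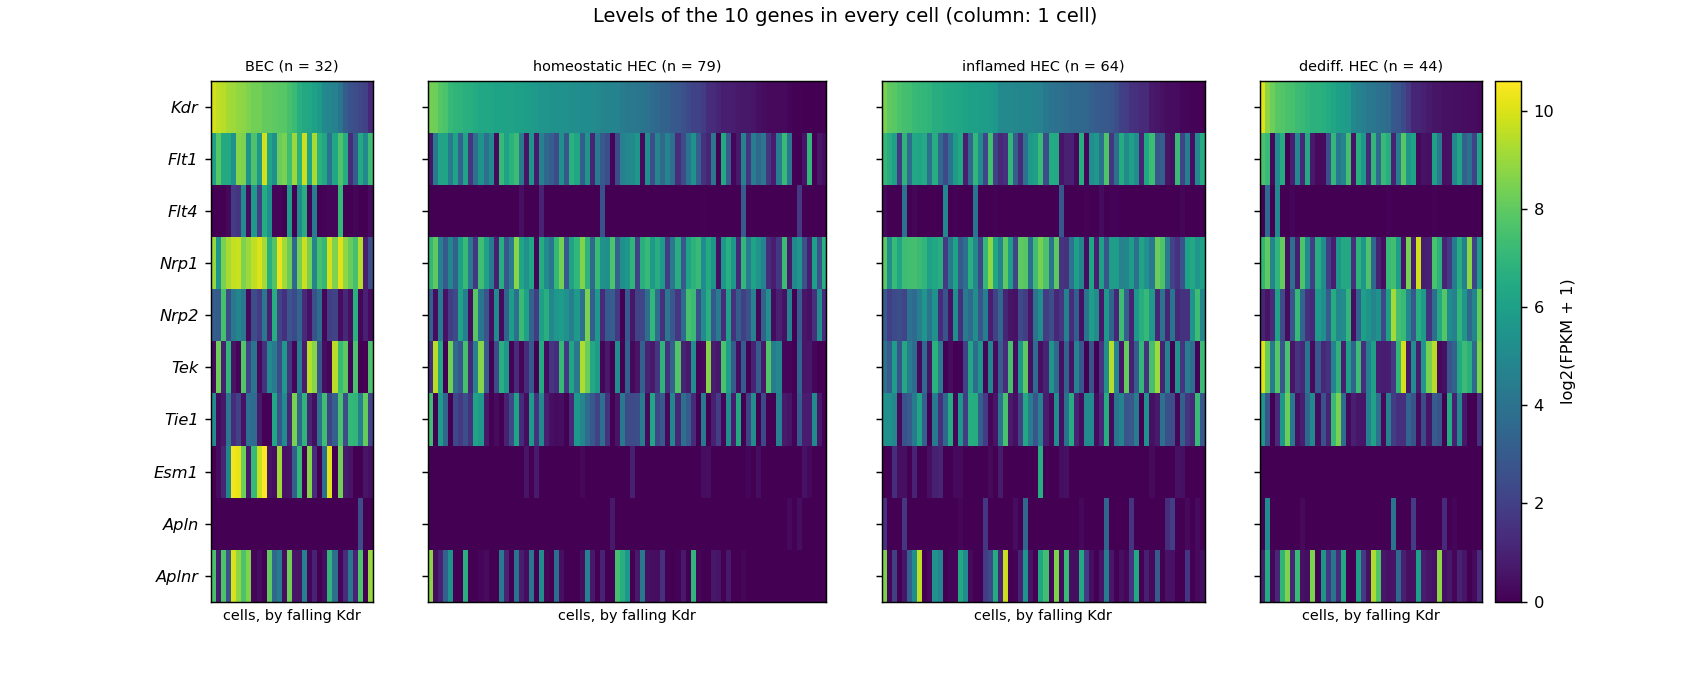
Heat map of log2(FPKM + 1) for the 10 genes in rows and every cell in columns; cells of a group are ordered by falling Kdr level. In BEC the Kdr, Flt1 and Nrp1 rows are bright across nearly all 32 cells, whereas in each HEC group cells bright for 1 of the 3 are often dark for another.

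Nrp2 (plus strand, chr1:62703285-62818695), the neuropilin known from venous and lymphatic endothelium, had the opposite order. Its lowest, median and highest FPKM were 0.1, 3.88 and 181 in BEC and 0, 8.56 and 356 in homeostatic HEC. Of the homeostatic HEC, 52 of 79 exceeded the BEC median. The mean log2 level was 2.53 ± 1.98 in BEC and 3.45 ± 2.21 in homeostatic HEC, a difference of 0.93 that missed the limit of 1. Over the alternatives it ran from 0.08 in cells matched on gene number to 1.11 with a pseudocount of 0.1, and it passed the limit in 2 of 8 settings, the reported one included in the 8. Another of the 8, all cells as deposited, is the same as the reported one here. The predicted genes Gm29083 and Gm37121 overlap the locus, and reads cannot be assigned by strand here.

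The balance of the neuropilins was also read within single cells. Nrp1 exceeded Nrp2 in 31 of 32 BEC (96.9%, interval 83.8% to 99.9%) with a mean gap of 5.45 log2 units. The same held in 56 of 79 homeostatic HEC (70.9%, interval 59.6% to 80.6%) with a mean gap of 1.58. Cells with Nrp2 but not Nrp1 at an FPKM of 10 or more numbered none of 32 BEC and 9 of 79 homeostatic HEC. The levels of the neuropilins were nearly unrelated across cells (Pearson r of log2 levels 0.12 over 32 BEC and 0.12 over 79 homeostatic HEC).

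**Figure D3:**
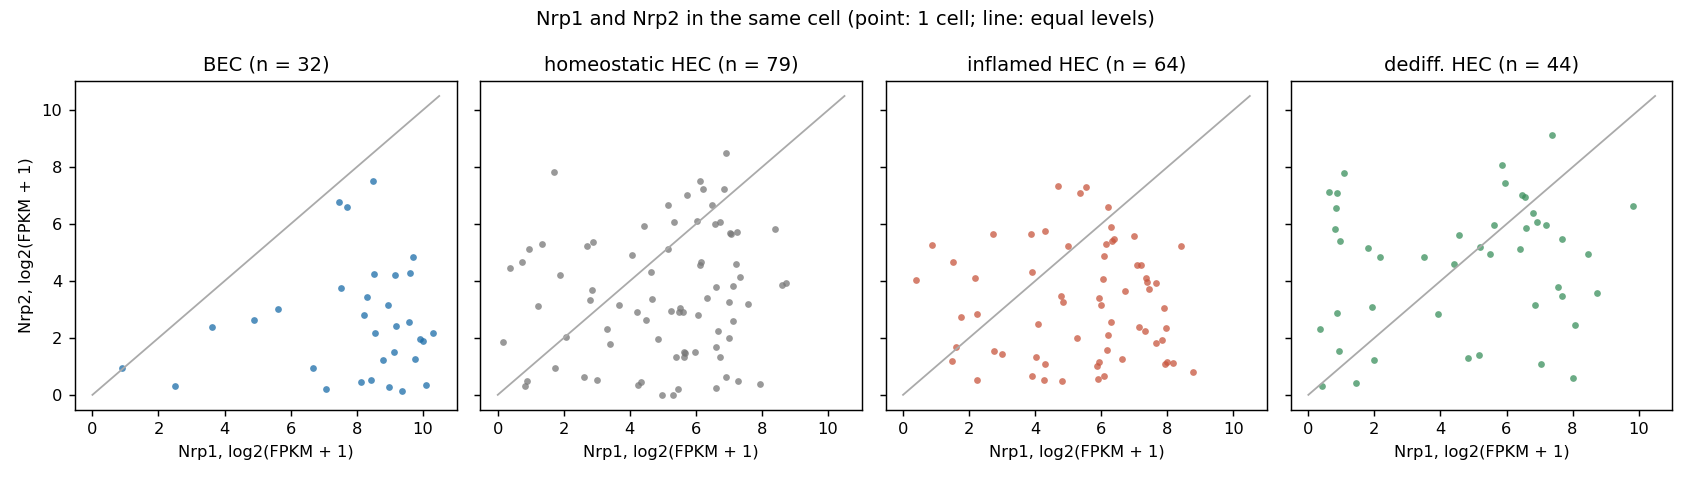
Nrp2 (vertical) against Nrp1 (horizontal), both as log2(FPKM + 1), in every cell of the 4 groups; each point is 1 cell and the line marks equal levels. In BEC 31 of 32 points lie below the line, and in dedifferentiated HEC 23 of 44 do.

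Flt4 (plus strand, chr11:49609263-49652739), the receptor for VEGF-C, was present in some BEC and in few HEC. Its lowest, median and highest FPKM in BEC were 0, 0.15 and 134, and 12 of 32 cells (37.5%, interval 21.1% to 56.3%) had it at an FPKM of 1 or more, 9 of them at 10 or more. In homeostatic HEC it was listed at 0 in 73 of 79 cells, and the highest of the 4 cells at 1 or more had 7.31. Its mean log2 level was 1.85 ± 2.57 in BEC and 0.11 ± 0.50 in homeostatic HEC, a difference of -1.73, which was -0.77 with a pseudocount of 10. The 12 BEC with Flt4 were checked for lymphatic markers: Prox1, the factor that defines lymphatic endothelium, was at 0 in 11 and at most 0.13, Pdpn and Reln were at 0 in all 12, and Lyve1 and Mmrn1 reached at most 0.51 and 0.1. All 12 had Pecam1, between 14.5 and 2060, and all 12 also had Kdr, Flt1 and Nrp1. Flt4 and Flt1 levels had a Pearson r of 0.48 over the 32 BEC, which have many zeros for Flt4. Levels of a cell also share its depth and library.

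Esm1 (plus strand, chr13:113209659-113218098) had the widest spread of the set in BEC and was below an FPKM of 1 in every homeostatic HEC. In BEC the lowest, median and highest FPKM were 0, 0.93 and 1533. The cells lay towards both ends of this range: 16 of 32 were under 1, 3 lay between 1 and 10, and 11 exceeded 100. In homeostatic HEC 69 of 79 cells were listed at 0, the highest value was 0.9, and none reached 1 (interval up to 4.56%). The mean log2 level was 3.72 ± 4.12 in BEC and 0.06 ± 0.18 in homeostatic HEC, a difference of -3.67. At median depth an Esm1 FPKM of 1 is about 4.25 fragments, so lower levels are at the edge of what these libraries can show. The gene Gzmk overlaps the annotated locus.

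Esm1-positive BEC were also cells with the VEGF receptors. All 16 had Kdr, Flt1 and Nrp1 at an FPKM of 1 or more, with Kdr from 16.2 to 700, Flt1 from 15.1 to 929 and Nrp1 from 11.2 to 1264. Flt4 was present in 9 of the 16 and Aplnr in 8. Nrp1 and Esm1 levels had a Pearson r of 0.44 over the 32 BEC. Since nearly all BEC had the 3 receptors, their presence does not set these cells apart.

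Tie1 was lower in homeostatic HEC and Tek was not past the limit. Tie1 (minus strand, chr4:118471191-118490061) had a lowest, median and highest FPKM of 0, 9.76 and 352 in BEC and 0, 1.95 and 163 in homeostatic HEC. Its mean log2 level was 3.58 ± 2.66 and 2.25 ± 2.11, a difference of -1.32, which was -0.76 with a pseudocount of 10. Tek (plus strand, chr4:94739289-94874976), the angiopoietin receptor, had values of 0, 5.3 and 732 in BEC and 0, 2.21 and 721 in homeostatic HEC. The Tek difference of -0.71 was smaller than the spread over cells in either group (SD 3.40 and 2.94) and passed the limit only after median-ratio scaling, at -1.25. The share of cells with Tek was 62.5% of BEC and 63.3% of homeostatic HEC.

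Tek and Tie1 were present together in 15 of 32 BEC and in 29 of 79 homeostatic, 34 of 64 inflamed and 21 of 44 dedifferentiated HEC. At an FPKM of 10 or more, 7 BEC had both, 8 had Tek alone, 9 had Tie1 alone and 8 had neither. The Pearson r of their levels ran from -0.25 in BEC to 0.10 in dedifferentiated HEC. The part of low detection in these counts was not tested.

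Aplnr (plus strand, chr2:85136225-85139923), the apelin receptor, was lower in homeostatic HEC, while its ligand was little detected. Aplnr had a lowest, median and highest FPKM of 0, 8.51 and 986 in BEC and 0, 0 and 437 in homeostatic HEC, where 40 of 79 cells were listed at 0. It was present in 20 of 32 BEC (62.5%, interval 43.7% to 78.9%) and 18 of 79 homeostatic HEC (22.8%, interval 14.1% to 33.6%). The mean log2 level was 3.77 ± 3.55 and 1.2 ± 2.19, a difference of -2.57. Each of the 18 homeostatic HEC with Aplnr also had Kdr and Nrp1 at an FPKM of 1 or more. Apln (minus strand, chrX:48025146-48034853) reached the limit in 1 BEC, at 4.73, and in no homeostatic HEC, where its highest value was 0.66.

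**Figure D4:**
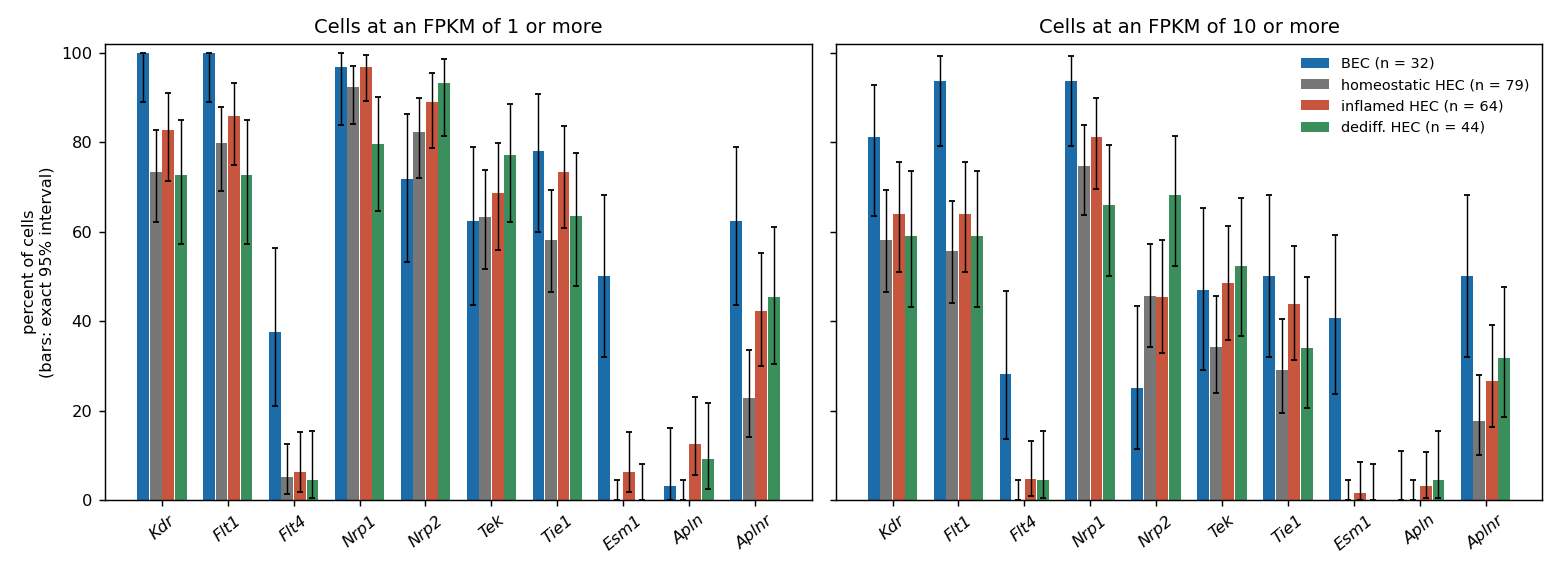
Percent of cells (vertical axis) with each gene (horizontal axis) at an FPKM of 1 or more, left, and 10 or more, right; bars are the 4 groups and lines the exact 95% intervals over cells. Kdr and Flt1 reach 100% only in BEC, Aplnr is at 62.5% of BEC and 22.8% of homeostatic HEC, and Nrp2 reaches 93.2% of dedifferentiated HEC.

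The order of levels differed between BEC and homeostatic HEC below the first place. By mean log2 level, BEC ran from Nrp1 (7.98) through Flt1 (6.73) and Kdr (6.51) to a level group of Aplnr (3.77), Esm1 (3.72), Tek (3.72) and Tie1 (3.58), then Nrp2 (2.53), Flt4 (1.85) and Apln (0.08). Homeostatic HEC ran from Nrp1 (5.03) through Kdr (3.74), Flt1 (3.51), Nrp2 (3.45), Tek (3.01) and Tie1 (2.25) to Aplnr (1.2), with Flt4, Esm1 and Apln under 0.12. Every gap between neighbours in these orders was smaller than the SD over cells of the higher gene, except that between Kdr and Aplnr in BEC. Nrp2 was at rank 8 of 10 in BEC and at rank 4 in homeostatic HEC.

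The ligands and other partners of these receptors were read from lists of the pathway, and a count covers the genes of a list that passed the detection filter. Of the VEGF ligands, Vegfb was higher in homeostatic HEC (difference 1.48), present in 31 of 79 cells against 1 of 32 BEC. Vegfa was present in 15 of 79 homeostatic HEC and in no BEC, with a difference of 0.61. Vegfc, Pgf and Figf (the gene for VEGF-D) did not pass the filter. Angpt2, an angiopoietin made by endothelial cells, was higher in homeostatic HEC (difference 1.70), present in 41 of 79 cells against 4 of 32 BEC. Ptprb, a phosphatase that restrains Tek and Kdr, was lower by far in homeostatic HEC, with a median FPKM of 9.26 against 140 and a difference of -3.62. Angpt1 was listed at 0 in all 79 homeostatic HEC, and Angpt4 and Apela, the other ligand of the apelin receptor, were listed at 0 in every cell of all groups.

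Among other genes of the pathway, 3 of 5 semaphorins and plexins, the ligands and signalling receptors that work with neuropilins, were lower in homeostatic HEC (Plxnd1 -1.66, Sema3c -1.16 and Plxna2 -1.02) and none was higher. Of 23 signalling genes downstream of the receptors, 3 were higher and 3 lower. The higher ones were Spry2, a feedback inhibitor of receptor kinases (2.35), Mapk3 (1.17) and Gab1 (1.11), and the lower ones included another Sprouty gene, Spry4 (-1.82), and Hspb1 (-1.47). Of 18 VEGF-response and tip-cell genes, 6 were lower and 3 higher, where 4.4% of all genes tested were lower and 17% higher. The lower ones were led by Igfbp3 (-4.37), Mcam (-1.86) and Pdgfb (-1.79), and the higher ones by Angpt2 (1.70). Of 15 endothelial transcription regulators, 6 were lower and 1 was higher: Nr2f2, the factor of venous identity, was higher by 3.43, while Sox17 (-2.23), Hey1 (-1.82) and Sox18 (-1.55), known from arterial and early endothelium, were lower. The list medians were -1.02 for semaphorins and plexins, -0.11 for signalling, -0.76 for response genes and -0.42 for the regulators, beside 0.28 for all genes. Of 10 genes that tissue dissociation is known to induce, 7 were higher and 1 was lower in homeostatic HEC than in BEC. Ier3 (4.54), Fos (3.93) and Egr1 (3.42) were higher by the most. The part of these genes in the differences was not tested.

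**Figure D5:**
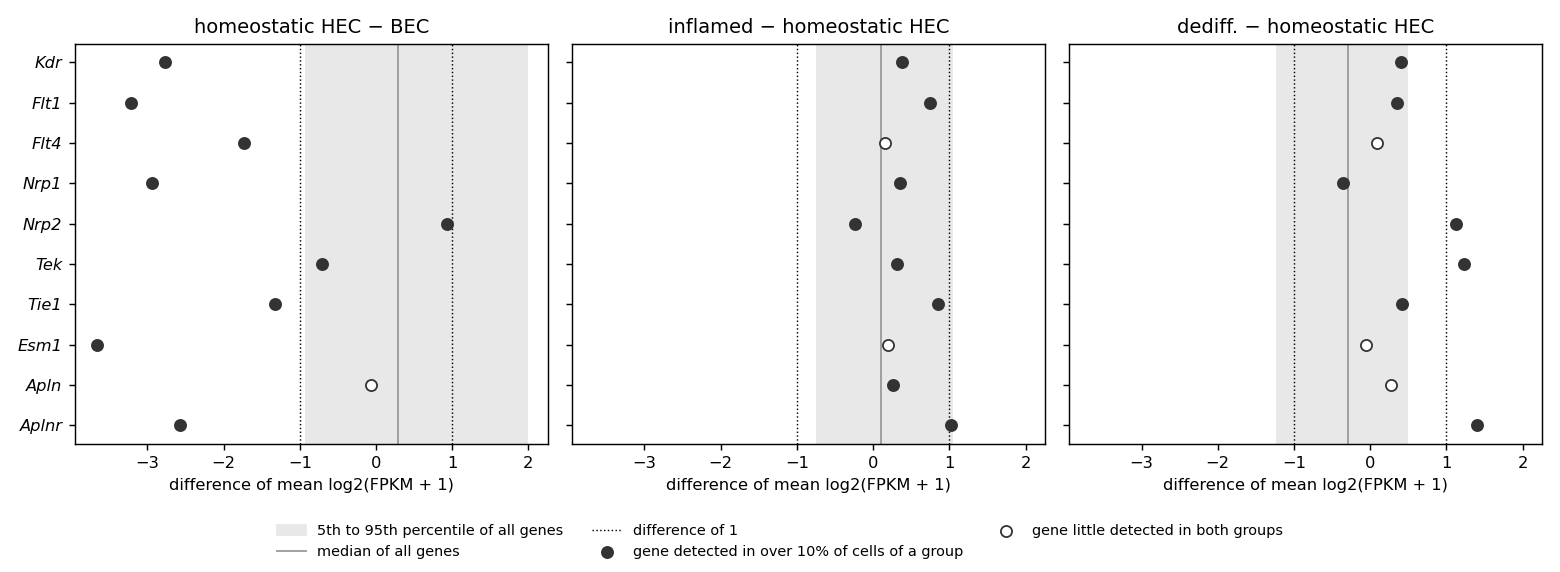
Difference of mean log2(FPKM + 1) on the horizontal axis for each gene on the vertical axis, in 3 comparisons; filled points passed the detection filter, open points did not, the grey band spans the middle 90% of all genes and the dotted lines mark a difference of 1 either way. Kdr, Flt1, Flt4, Nrp1, Tie1, Esm1 and Aplnr lie left of -1 in the comparison of homeostatic HEC with BEC, while Aplnr alone in inflamed HEC, and Nrp2, Tek and Aplnr in dedifferentiated HEC, lie right of 1.

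After skin oxazolone, the differences of these genes from homeostatic HEC were mostly under the limit of 1. Only Aplnr passed the limit, with 1 of 10 genes higher and none lower, where 5.48% of the 9525 genes tested were higher and 2.6% lower (8.08% in either direction). The median difference of the 10 genes was 0.33, beside 0.10 for all genes. Flt4 and Esm1 did not pass the detection filter in this comparison.

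Aplnr had a lowest, median and highest FPKM of 0, 0.46 and 868 in inflamed HEC, and its mean log2 level was 2.22 ± 2.91 beside 1.2 ± 2.19 in homeostatic HEC, a difference of 1.02. It was present in 27 of 64 inflamed HEC (42.2%, interval 29.9% to 55.2%) and at 10 or more in 17 of 64, against 14 of 79 homeostatic HEC. The difference lay on the limit and passed it in 5 of 8 settings, the reported one included: it was 1.73 with a pseudocount of 0.1, 0.89 without the cells that carried markers of another type, 0.75 in cells matched on gene number and 0.52 with a pseudocount of 10. Apln was present in 8 of 64 inflamed HEC (12.5%, interval 5.55% to 23.1%), the highest at 10.9, and 5 of these 8 cells also had Aplnr.

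The receptor kinases differed less. Flt1 had a lowest, median and highest FPKM of 0.11, 27.4 and 205 in inflamed HEC, with a difference of 0.74 from homeostatic HEC. Tie1 had values of 0, 6.98 and 189, with a difference of 0.86, and 43 of 64 inflamed HEC lay above the homeostatic median. Kdr had values of 0, 21.7 and 357 (difference 0.38), and Nrp1 had 0.31, 61.3 and 440 (difference 0.36). None of these passed the limit, and every range overlapped that of homeostatic HEC almost wholly. Tek had 0, 8.42 and 675 (difference 0.31) and Nrp2 had 0.4, 7.59 and 159 (difference -0.24). The sign of the Tek difference turned with the scale, to -0.23 for the log2 ratio of mean FPKM, each plus 1.

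Esm1 reached an FPKM of 1 in 4 of 64 inflamed HEC (6.25%, interval 1.73% to 15.2%), and 1 of these cells, at 96.9, stood apart from the other three, which lay between 1.04 and 1.58. All 4 also had Aplnr, between 3.03 and 76.5, and all 4 had Kdr, Flt1 and Nrp1. Flt4 was at 1 or more in 4 of 64 cells, and in them Prox1, Pdpn, Mmrn1 and Reln were at 0. Lyve1 was present in 20 of the 64 inflamed HEC, but Prox1 was at 0 in every one of the 64.

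Some partner genes passed the limit in inflamed HEC, where 5.48% of all genes tested were higher and 2.6% lower. List medians were 1.23 for angiopoietin and Tie regulators, 0.51 for semaphorins and plexins, and 0.41 for response genes. They were 0.28 for signalling, 0.24 for transcription regulators, 0.24 for apelin partners and -0.50 for VEGF ligands. The 10 genes had a median of 0.33, and all genes had 0.10. The Tek phosphatase Ptprb was higher in inflamed HEC by 1.89, with a median FPKM of 41.3 against 9.26, and Foxo1, a target of Tek signalling, was higher by 1.23, so 2 of 3 angiopoietin and Tie regulators were higher. Of 15 response and tip-cell genes 4 were higher and none lower: Mcam by 3.58, the insulin receptor Insr by 3.36, the calcineurin inhibitor Rcan1 by 2.22 and Plaur by 1.15. Of 23 signalling genes, Akt1 (1.19) and Mapkapk2 (1.11) were higher and Spry2 was lower (-1.25). Sema3f, a semaphorin that binds Nrp2, was higher by 1.47, and among 14 transcription regulators Ets2 (1.52) and Nr2f2 (1.03) were higher and Hes1 was lower (-1.21). Neither of the VEGF ligands that passed the filter and neither of the apelin partners was past the limit. Of the 10 dissociation-induced genes, 6 were lower in inflamed than in homeostatic HEC (Fos, -4.33, and Egr1, -4.07, the most). Of the 7 HEC markers, 4 were lower (Glycam1, -2.62, Fut7, -1.58, Ccl21a, -1.53, and Enpp2, -1.22), and of the 6 capillary markers Ly6c1 was higher (2.12). Their part in the results was not tested.

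After LTBR-Ig, 3 of the 10 genes were higher in HEC: Aplnr, Tek and Nrp2. Of the 9008 genes tested, 0.833% were higher and 9.52% lower (10.4% in either direction), and none of the 10 genes was lower. The median difference was 0.38, beside -0.30 for all genes. With median-ratio scaling of the cells the split of all genes turned, to 10.8% higher and 1.33% lower with a median of 0.15, and 6 of the 10 genes were higher (Kdr, Flt1 and Tie1 in addition), and with a pseudocount of 10 none was. For the log2 ratio of mean FPKM, each plus 1, a different set passed: Aplnr (1.92), Apln (1.16), Kdr (1.08) and Tie1 (1.01). By that measure 15.1% of all genes were higher and 18.4% lower. Tek (0.99) and Nrp2 (0.97) lay just under the limit. Few cells weighed heavily on these means in dedifferentiated HEC. The highest cell held 62.1% of the Apln sum and 28.1% of the Kdr sum, and the highest 3 held 62.6% of Tie1 and 53.5% of Aplnr. Flt4, Esm1 and Apln did not pass the detection filter.

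Nrp2 had a lowest, median and highest FPKM of 0.25, 31.8 and 560 in dedifferentiated HEC, and 30 of 44 cells lay above the homeostatic median of 8.56. The mean log2 level was 4.58 ± 2.30 beside 3.45 ± 2.21, a difference of 1.13 that is smaller than the spread over cells. It was present in 41 of 44 cells (93.2%, interval 81.3% to 98.6%) and at 10 or more in 30 of 44. Nrp1, in contrast, had values of 0.28, 39.9 and 911 and was present in 35 of 44 cells (79.5%, interval 64.7% to 90.2%). The Nrp1 difference was -0.36 and its sign depended on the scale, at 0.92 after median-ratio scaling and 0.48 for the log2 ratio of mean FPKM, each plus 1.

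Within dedifferentiated cells the neuropilins were nearly level. Nrp1 exceeded Nrp2 in 23 of 44 cells (52.3%, interval 36.7% to 67.5%), with a mean gap of 0.10 log2 units, against gaps of 1.58 in homeostatic and 2.18 in inflamed HEC. Cells with Nrp2 but not Nrp1 at an FPKM of 10 or more numbered 8 of 44, beside 5 of 64 inflamed HEC. Kdr and Nrp2 levels ran opposite to each other across the 44 dedifferentiated HEC (Pearson r -0.45), where 16 cells had Nrp2 without Kdr at an FPKM of 10 or more, 12 had Kdr without Nrp2 and 14 had both. Across the 32 BEC the same coefficient was 0.42. Levels of a cell share its depth and library, and these coefficients are descriptions.

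Tek had a lowest, median and highest FPKM of 0.19, 13.9 and 1070 in dedifferentiated HEC, with 29 of 44 cells above the homeostatic median of 2.21. Its mean log2 level was 4.24 ± 3.07 beside 3.01 ± 2.94, a difference of 1.23. It was present in 34 of 44 cells (77.3%, interval 62.2% to 88.5%) and was listed at 0 in none, against 8 zeros among 79 homeostatic HEC. Tie1 differed less, with values of 0, 3.72 and 351 and a difference of 0.42.

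Aplnr had a lowest, median and highest FPKM of 0, 0.86 and 620 and a mean log2 level of 2.60 ± 3.07, a difference of 1.40 from homeostatic HEC. It was present in 20 of 44 cells (45.5%, interval 30.4% to 61.2%) and at 10 or more in 14 of 44. The cells spread widely, with 7 above 100 and 24 under 1. Of the cells with Aplnr, 18 also had Kdr. Apln was present in 4 of 44 cells, the highest at 34.7, and 1 of the 4 also had Aplnr.

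Kdr and Flt1 had medians in dedifferentiated HEC close to the homeostatic ones, but wider spread. Kdr had a lowest, median and highest FPKM of 0.21, 17.6 and 1098, and Flt1 had 0, 19.1 and 227. Their differences on the log2 scale were 0.40 and 0.35. Mean FPKM of Kdr was 88.9, against 41.5 in homeostatic HEC, with 12 of 44 cells above 100 against 9 of 79. Kdr and Flt1 were both present in 24 of 44 cells, 8 had Kdr alone, 8 had Flt1 alone and 4 had neither. Kdr, Flt1 and Nrp1 were present together in 18 of 44 cells (40.9%, interval 26.3% to 56.8%). Esm1 was listed at 0 in all 44 dedifferentiated HEC (interval up to 8.04%), without a single value between 0 and 1. In the 2 cells with Flt4, Prox1 was at 0, and 1 of them had the lymphatic gene Mmrn1 at 277.

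Few partner genes passed the limit in this comparison. Of the VEGF ligands Vegfb was lower (-1.43), present in 2 of 44 cells against 31 of 79. None of the 3 angiopoietin and Tie regulators, of the 2 apelin partners or of the 3 semaphorins and plexins that passed the filter was past the limit. Of 23 signalling genes Grb2 was lower (-1.31), of 14 response genes Insr was higher (1.32), and of 14 transcription regulators Hes1 (-1.26) and Lmo2 (-1.25) were lower. Of 10 dissociation-induced genes, 4 were lower, led by Egr1 (-3.36) and Fos (-2.51), and of the 7 HEC markers 3 were lower (Glycam1, -2.42, Fut7, -2.29, and Ubd, -1.08). Of the 6 capillary markers, Car4 was higher (1.55) and the other five were within the limit, with a list median at 0.00. The part of these differences in the results was not tested.

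Set beside the same BEC, both treated groups kept most of the differences seen in homeostatic HEC, and these comparisons share groups and are given only as values. In inflamed HEC 6 of the 10 genes were lower than in BEC and none higher, where 3.87% of the genes tested were lower and 21.8% higher (9.40% and 13.1% with median-ratio scaling): Kdr (-2.39), Flt1 (-2.47), Flt4 (-1.58), Nrp1 (-2.59), Esm1 (-3.48) and Aplnr (-1.55). In dedifferentiated HEC 6 were lower, where 9.45% of genes were lower (8.46% with median-ratio scaling): Kdr (-2.37), Flt1 (-2.87), Flt4 (-1.64), Nrp1 (-3.30), Esm1 (-3.72) and Aplnr (-1.16). In both comparisons Flt4 and Esm1 passed the detection filter through BEC alone, which favoured a lower call. Nrp2 was 2.05 higher in dedifferentiated HEC than in BEC, where 11.3% of genes were higher (18.4% with that scaling), and 36 of 44 cells lay above the BEC median of 3.88. Between the treated groups, Nrp2 was lower in inflamed than in dedifferentiated HEC (-1.36), the 1 gene of the 10 past the limit, where 1.32% of genes were lower and 15.8% higher. Median-ratio scaling turned that split to 8.96% lower and 3.77% higher, with 4 of the 10 genes lower. In cells matched on gene number the Nrp2 difference was -0.92, and Kdr (-1.51) and Aplnr (-1.03) were past the limit in its place. Tek differed by -0.92 in the same direction without passing.

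Levels were also set against markers of vessel type across the cells of each group. Against the mean of the 6 capillary markers, in the order BEC, homeostatic, inflamed and dedifferentiated HEC, the Pearson r of Kdr was 0.55, 0.39, 0.23 and 0.09. In the same order it was 0.25, 0.45, 0.24 and 0.24 for Flt1, 0.31, 0.24, 0.47 and 0.0029 for Nrp1 and 0.17, 0.43, 0.33 and 0.33 for Aplnr, so these coefficients were above 0 but varied in size between groups. Tek differed in sign, with -0.42 in BEC and 0.28, 0.37 and 0.29 in the HEC groups. Nrp2 (0.37, 0.06, -0.21 and -0.11) and Tie1 (-0.19, 0.16, 0.10 and 0.02) also changed sign between groups. Against the mean of the 7 HEC markers, Aplnr had -0.02, -0.29, -0.43 and -0.37. Tek had 0.46, 0.08, -0.08 and -0.10 against the same markers. All of these share the depth of the cell and are given as descriptions.

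The genes whose levels were most like those of Kdr, Flt1, Nrp1, Nrp2 and Tek over the 219 cells, after group means were removed and among 5903 genes, had only weak coefficients. They were Eif4g3 (0.32), Thbd (0.32) and Ly6c1 (0.30) for Kdr and Ly6c1 (0.35), Sptbn1 (0.32) and Slc6a6 (0.30) for Flt1. For Nrp1 they were Ppap2a (0.35), Paip2 (0.32) and Rgcc (0.30), and for Nrp2 Eif2s3x, Uqcrfs1 and Foxp1 (0.27 each). Tek was closest to Gpr146 (0.31), Ly6c1 (0.29) and S100a11 (0.28). In sparse values such coefficients are no finding.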

How the data were processed

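RNA of 220 single endothelial cells of mouse lymph nodes was sequenced. The deposited table holds FPKM values made by the authors, rounded to 2 decimals. RSEM 1.2.18, CASAVA 1.8 and build mm10 are named in the submitters' processing notes. Order of the tools, annotation, filters and doublet handling were not given in the sources used here. Per the labels' protocols, Fluidigm C1 and Nextera XT were used. Amplified fragments carry no molecular tags.

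Cells were grouped by the labels. The inflamed cells 43 and 60 had a Pearson r of 0.987 (0.666 for the next pair) on the log2 scale and were averaged and counted once, leaving 64 inflamed HEC. Count models were not used, since FPKM are not counts. Differences are of mean log2(FPKM + 1), with a pseudocount of 1, which understates ratios of low genes. With 1 sample per group nothing was tested. Depth was approximated over 2536 single-transcript genes, a step tested on simulated data. Summed FPKM per cell had medians between 469532 (BEC) and 664817 (homeostatic HEC), and the values reported were not rescaled. Of the symbols, 94.6% were found in GENCODE M21 (GRCm38), and 76.0% of all values were 0.

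The 10 genes, 7 pathway lists and 12 marker lists were chosen with earlier results of these data known. Named genes were the 10 members, at most the 4 largest differences of 1 or more in a pathway list, partners needed to complete a family, marker genes, and, for members present in at least 50% of all cells, the 3 genes of highest correlation among genes present in at least 20% (those for Tie1 are not reported here). Alternatives were pseudocounts of 0.1 and 10, ratios of arithmetic means, no detection filter, median-ratio scaling, cells matched on gene number within 10%, leaving out cells with 3 markers of another type, and all cells as deposited. Python 3.11.15, numpy 2.4.6, pandas 2.3.3 and scipy 1.17.1 were used.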

Additional observations from a re-analysis of the deposited data

How the results depend on the processing

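No paired analysis was possible because the cell numbers in the labels only name cells and no result comes from a test. Under the 7 alternatives, Kdr, Flt1, Nrp1, Esm1 and Aplnr were lower by 1 or more in homeostatic HEC than in BEC each time, with 5 to 8 of the 10 genes past the limit. The same held for Kdr, Flt1, Nrp1 and Esm1 in both treated groups against BEC, and for the higher Nrp2 of dedifferentiated HEC. In inflamed against homeostatic HEC the count of 1 became 2 with a pseudocount of 0.1 (Tie1 in addition, 1.27) and with ratios of arithmetic means (Esm1 in addition, 1.33). Of the Esm1 sum, 91.8% lay in 1 inflamed cell, and Esm1 did not pass the detection filter in this comparison. The count became 0 with a pseudocount of 10, in cells matched on gene number and without cells carrying markers of another type. Over the settings of this comparison, 1.19% to 15.7% of all genes were higher and 0.892% to 10.2% lower. In dedifferentiated against homeostatic HEC the count of 3 became 0 with a pseudocount of 10, 6 with median-ratio scaling and 4 with arithmetic means, where Tek and Nrp2 no longer passed. Here 0.211% to 15.1% of all genes were higher and 1.32% to 24.4% lower over the settings. Between the treated groups the count of 1 became 2 with a pseudocount of 0.1, 0 with a pseudocount of 10, 3 with arithmetic means, 4 with scaling and 2 in matched cells, and Nrp2 no longer passed in matched cells (-0.92) or with a pseudocount of 10 (-0.90). Of all genes, 0.545% to 13.9% were lower and 2.75% to 36.5% higher in inflamed than in dedifferentiated HEC over the settings. The cause of these shifts in the counts was not tested. Over all comparisons and settings, 376 single differences of a gene kept their side of the limit, 26 passed it newly, 18 no longer passed it, and no called difference changed sign. The 376 include those from all cells as deposited, which could not move in comparisons without inflamed HEC. The number of genes past the limit in a pathway list moved by over 1.5 times in 85 of 205 cases, and 67 of 176 shares and co-detection counts moved beyond their interval, in each case with another detection limit. The 176 also include settings that kept that limit, so a change of limit moved a larger share of the counts it touched. Without the detection filter the share of all genes past the limit was 8.23% against 21.4% in homeostatic HEC against BEC, 3.20% against 8.08% in inflamed and 3.88% against 10.4% in dedifferentiated against homeostatic HEC, 9.98% against 25.6% and 7.24% against 20.8% in the treated groups against BEC, and 6.53% against 17.1% between the treated groups. An FPKM of 1 is 4.25 fragments for Esm1 and 14 for Flt1 at median depth, so genes near 1 FPKM are not detectable with any precision in shallow cells.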
